A study of Rattus norvegicus with 16 samples.

Results

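The Zfp genes are the rat genes whose symbol is Zfp followed by a number, a name given to zinc finger proteins. They were taken from the table of log2 expression values as the rows that the platform's annotation gives exactly 1 symbol of that form, and each gene was represented by the row with the highest mean over all 16 arrays. This gave 136 genes from 144 rows, out of 14324 genes with a row of their own symbol. The genes described first were selected on measured values: all 8 HHR arrays lay above, or all 8 below, all 8 NHR arrays. That separation is therefore given as a description without a test. Strain differences of Zfp genes were also fitted with limma. Genes chosen on the same contrast tend to pass it, so whether a Zfp gene passed for strain is given as description too.

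Whole-transcript Affymetrix arrays measured total RNA in the heart of 2-day-old rats of the strains HHR (hypertrophic heart rat) and NHR (normal heart rat). Each strain gave 4 females and 4 males, with 1 unpooled heart per array, and all animals were killed with pentobarbitone. HHR hearts are labelled hypertrophic and NHR hearts normal, and the title calls the hypertrophy polygenic. The labels name the whole heart in 1 place and ventricles freed of atria in another. Litters are not stated, so litter and strain cannot be told apart. Earlier work on these data found NHR female 3, NHR female 4 and NHR male 4 to stand apart from the other NHR arrays, and the values without them are given where they differ by over 1.5 times or change a call. A filter on dim rows would keep 122 of the 136 Zfp genes and drop 14, and all 136 are described.

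Most Zfp proteins carry C2H2 zinc fingers, short loops held by a zinc ion that read DNA, often many in a row. Many also carry a KRAB box, which binds Trim28, and Trim28 in turn brings in the histone methyltransferase Setdb1 and heterochromatin proteins that silence nearby chromatin. Such genes multiplied by tandem duplication and often lie in clusters. The name is not a function, however: Zfp36, for example, encodes an RNA-binding protein that speeds the decay of AU-rich messages. In heart, Zfp260 is known from rat as a partner of Gata4 that activates the atrial natriuretic peptide gene.

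Of the 136 Zfp genes, 8 (5.88%) had no overlap between the strains. In HHR 2 of them were higher, against 2.32% of all 14324 genes with all HHR values above NHR, and 6 were lower, against 2.72% of all genes with all HHR values below. The 2 higher genes were Zfp347 and Zfp148, and the 6 lower ones were Zfp219, Zfp9, Zfp866, Zfp692, Zfp282 and Zfp532. The share without overlap over all genes was 5.04%, close to that of the Zfp genes. Each of the 8 genes had 1 row in the table, so no second row could be set beside it.

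Zfp347 differed most. In HHR females its log2 values were 7.37, 7.34, 7.18 and 7.51, and in HHR males 7.77, 7.61, 7.36 and 7.14. In NHR females they were 6.35, 6.31, 6.28 and 5.64, and in NHR males 6.29, 6.45, 5.56 and 6.13. The lowest HHR array lay 0.69 above the highest NHR array, whereas the spread was wider within NHR, where NHR female 4 and NHR male 3 were the lowest arrays. Means were 7.41 ± 0.21 in HHR and 6.13 ± 0.34 in NHR (SD, n = 8 each), a difference of 1.29 (SE 0.13) or 2.44-fold. It was the only Zfp gene of the 136 to differ by at least 1.5-fold, on the deposited values, beside 126 of all 14324 genes.

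**Figure D1:**
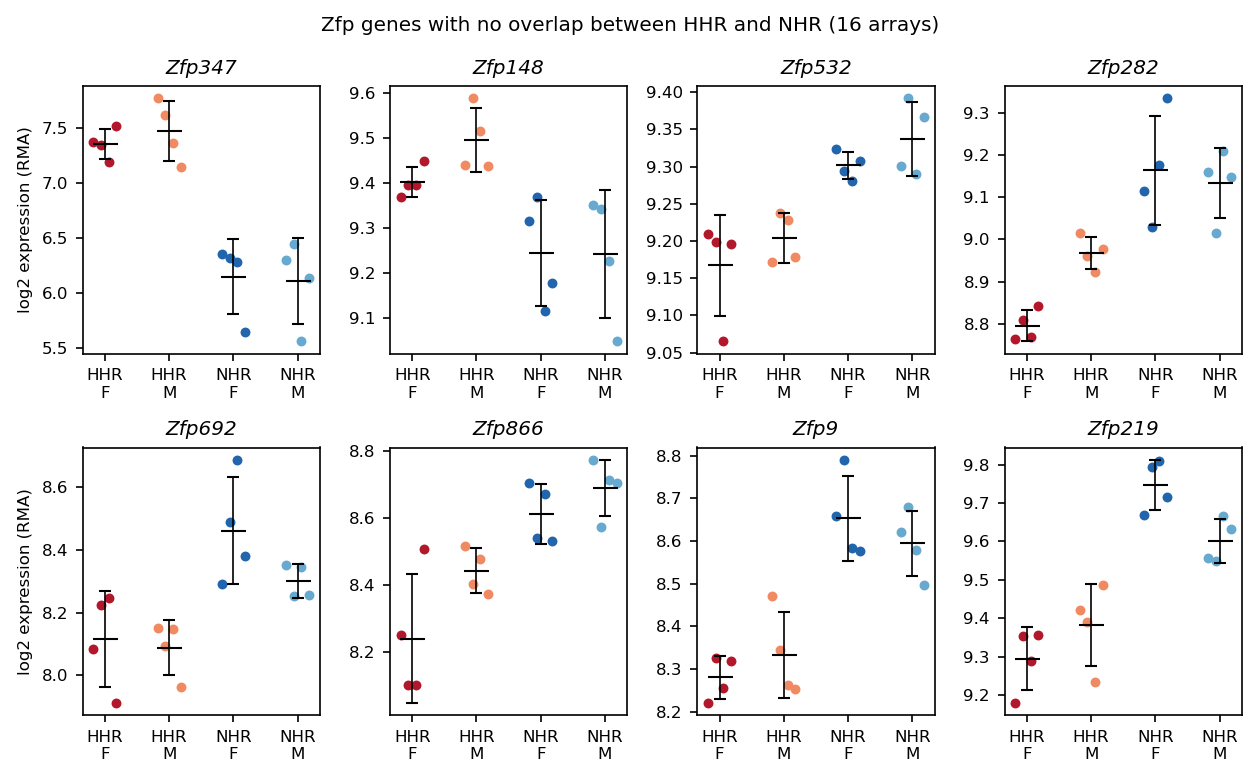
Log2 expression (RMA, vertical axes, each with its own range) of the 8 Zfp genes without overlap between strains, by strain and sex (F, females; M, males). Points are arrays, 4 per group, and bars are the mean ± SD. Zfp347 shows a gap of 0.69 between the strains, while the other 7 genes show gaps of 0.00041 to 0.063.

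Zfp148 encodes a factor that binds GC-rich promoter elements. Its HHR arrays lay between 9.37 and 9.59 with a median of 9.44, and its NHR arrays between 9.05 and 9.37 with a median of 9.27. HHR exceeded NHR by 0.21 (SE 0.05), and the strains were parted by 0.00041 only, between HHR female 1 and NHR female 2. The difference was 0.12 without the 3 NHR arrays that stand apart, and it then did not pass limma.

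Of the 6 lower genes, Zfp219, which in mouse works with Sox9 in cartilage, had the widest gap. Its HHR arrays ran from 9.18 to 9.49 (median 9.36) and its NHR arrays from 9.55 to 9.81 (median 9.67). The difference was -0.33 (SE 0.05), with 0.06 between the nearest arrays of the strains. Zfp9 had HHR values of 8.22 to 8.47 (median 8.29) and NHR values of 8.50 to 8.79 (median 8.60), a difference of -0.32 (SE 0.05). Again no array of either strain reached into the range of the other, and HHR male 1 came nearest to NHR.

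Zfp866 ranged from 8.10 to 8.52 (median 8.39) in HHR and from 8.53 to 8.77 (median 8.69) in NHR, and differed by -0.31 (SE 0.06). The HHR values were widest in the females, of which replicates 2 and 3 were at 8.10 and replicate 4 at 8.51. Zfp692, whose human counterpart is known as a repressor of gluconeogenic genes, ranged from 7.91 to 8.25 (median 8.12) in HHR and from 8.25 to 8.69 (median 8.35) in NHR. Its difference was -0.28 (SE 0.06), and NHR female 3 stood highest.

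Zfp282, whose human counterpart was found as a repressor of a leukaemia virus promoter, had HHR values of 8.76 to 9.01 (median 8.88) and NHR values of 9.02 to 9.33 (median 9.15). It differed by -0.27 (SE 0.05), with a gap of 0.0015 between HHR male 1 and NHR male 2. Zfp532 ranged from 9.06 to 9.24 (median 9.20) in HHR and from 9.28 to 9.39 (median 9.30) in NHR. Its difference of -0.13 (SE 0.04) was the smallest of the 8, and its SDs were 0.05 in HHR and 0.04 in NHR. It was as large without the 3 NHR arrays that stand apart (-0.13, SE 0.04) but then did not pass limma.

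Separation depended on how the arrays were scaled. Zfp347, Zfp148, Zfp532 and Zfp9 stayed separated after quantile normalization, after median centring and after cyclic loess. Zfp219 and Zfp282 stayed so after median centring only. Zfp692 and Zfp866 overlapped after each of the 3 scalings. The signs of all 8 differences were kept in each of them.

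The threshold of no overlap is narrow. Just inside it lay Zfp148 (gap 0.00041) on the higher side and Zfp282 (0.0015), Zfp692 (0.0073) and Zfp866 (0.014) on the lower side. Just outside it on the higher side lay Zfp879, Zfp524 and Zfp365, with gaps of -0.00377, -0.00953 and -0.0378, where a negative gap is an overlap, and they differed by 0.21, 0.24 and 0.16. Just outside it on the lower side lay Zfp775, Zfp292 and Zfp346, with gaps of -0.012, -0.022 and -0.025, and they differed by -0.27, -0.25 and -0.33. Zfp346 encodes a protein that binds double-stranded RNA, and its HHR values ran from 7.58 to 8.26 against 8.24 to 8.47 in NHR, so that HHR male 1 alone overlapped with NHR. Zfp292 has 3 rows, of which 1 differed by 0.06 (SE 0.06), and the mean over its rows differed by -0.14.

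Other genes became separated when the values were treated differently. Zfp524 was separated after each of the 3 scalings, Zfp775 after quantile normalization and median centring, and Zfp879 after median centring. Without the 3 NHR arrays that stand apart, Zfp524 and Zfp879 were separated above NHR, and Zfp57 and Zfp612 below.

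The upstream flanks show what lies before the annotated start of genes that differed, in the reference genome and not in HHR or NHR. RefSeq (GRCr8) holds a window for 115 of the 136 Zfp genes and for 5 of the 8, namely Zfp148, Zfp282, Zfp347, Zfp692 and Zfp866. The 250 bases before the annotated gene start are printed 5′ to 3′ for both higher genes and for Zfp866 with Atp13a1, the neighbour that was lower with it, with each CG in capitals. They lie at chr7:8117749-8117998 (plus strand) for Zfp347, chr11:80890878-80891127 (minus) for Zfp148, chr16:19702052-19702301 (plus) for Zfp866 and chr16:19665121-19665370 (minus) for Atp13a1.
Zfp347: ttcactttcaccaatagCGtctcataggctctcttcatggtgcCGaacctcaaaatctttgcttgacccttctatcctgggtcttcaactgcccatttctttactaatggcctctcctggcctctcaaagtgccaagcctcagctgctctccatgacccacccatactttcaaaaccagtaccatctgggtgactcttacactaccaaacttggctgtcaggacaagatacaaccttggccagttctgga
Zfp148: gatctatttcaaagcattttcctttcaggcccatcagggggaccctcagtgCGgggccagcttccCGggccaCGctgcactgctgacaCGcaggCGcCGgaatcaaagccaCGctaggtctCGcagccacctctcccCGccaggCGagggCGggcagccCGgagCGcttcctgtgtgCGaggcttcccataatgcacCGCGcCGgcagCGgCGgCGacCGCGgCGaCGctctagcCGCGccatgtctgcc
Zfp866: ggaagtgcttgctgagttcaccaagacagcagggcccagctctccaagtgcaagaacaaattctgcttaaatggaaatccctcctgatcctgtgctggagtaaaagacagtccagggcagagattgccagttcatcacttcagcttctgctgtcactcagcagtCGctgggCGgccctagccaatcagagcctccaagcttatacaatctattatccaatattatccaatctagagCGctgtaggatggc
Atp13a1: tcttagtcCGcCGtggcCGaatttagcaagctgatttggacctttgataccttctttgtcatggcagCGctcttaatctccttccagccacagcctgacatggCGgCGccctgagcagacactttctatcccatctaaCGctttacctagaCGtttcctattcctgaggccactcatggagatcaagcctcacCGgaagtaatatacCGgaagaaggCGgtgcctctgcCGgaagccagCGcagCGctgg

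The 2 genes that were higher in HHR have unlike flanks, with 2 CG in that of Zfp347 and 26 in that of Zfp148. Zfp866 has 3, Zfp692 8 and Zfp282 18. The median was 8 over the 5 separated genes, 14 over the other 110 Zfp genes with a window and 12 over 11806 measured genes. The TATA box letters TATAAA, read on both strands, were in 0 of the 5 separated and 10 of the other 110 windows, and in 11.3% of windows of measured genes. The GC box letters GGGCGG, on both strands, were in 3 of the 5 (Zfp148, Zfp282 and Zfp866), in 49 of the other 110 and in 47.3% of measured genes. The motifs have no letter in common and so cannot overlap, and a match is only a match of letters.

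Across the whole family the median absolute difference was 0.097, beside 0.0859 over all genes. Of the 136 genes, 89 had a negative and 47 a positive difference, with a median of -0.04 beside -0.02 over all genes, and a range of -0.33 to 1.29. In the limma fit over all rows, 25 Zfp genes (18.4%) were lower in HHR, beside 11.2% of all genes, and 8 (5.88%) were higher, beside 11.8%, while 103 did not pass. These counts use the same contrast as the selection and nothing is read from them. Higher genes made up 24.2% of the Zfp calls on the deposited values, 35.5% after quantile normalization (11 higher, 20 lower), 35.7% after median centring (10 and 18) and 38.7% after cyclic loess (12 and 19). Over all genes, 11.5% were then higher and 10.9% lower after quantile normalization, 12.9% and 8.55% after median centring, and 12.3% and 10.3% after cyclic loess.

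The 8 separated genes were all among the 33 that passed, which their choice on the same contrast favours. The remaining 25 comprised 19 lower genes, with differences from -0.33 to -0.14, and 6 higher genes, from Zfp365 (0.16) to Zfp524 (0.24). Zfp365 did not pass without HHR female 2 or without HHR male 1, nor without the 3 NHR arrays that stand apart. The level of the family in each array also varied: the median over the 136 genes ran from 8.09 to 8.24 in HHR and from 8.24 to 8.35 in NHR. The array medians over all rows were 7.20 to 7.24 in HHR and 7.19 to 7.28 in NHR. HHR female 1 had the lowest family median and NHR male 1 the highest, and the strains overlapped through HHR males 2 and 3 and NHR male 4.

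**Figure D2:**
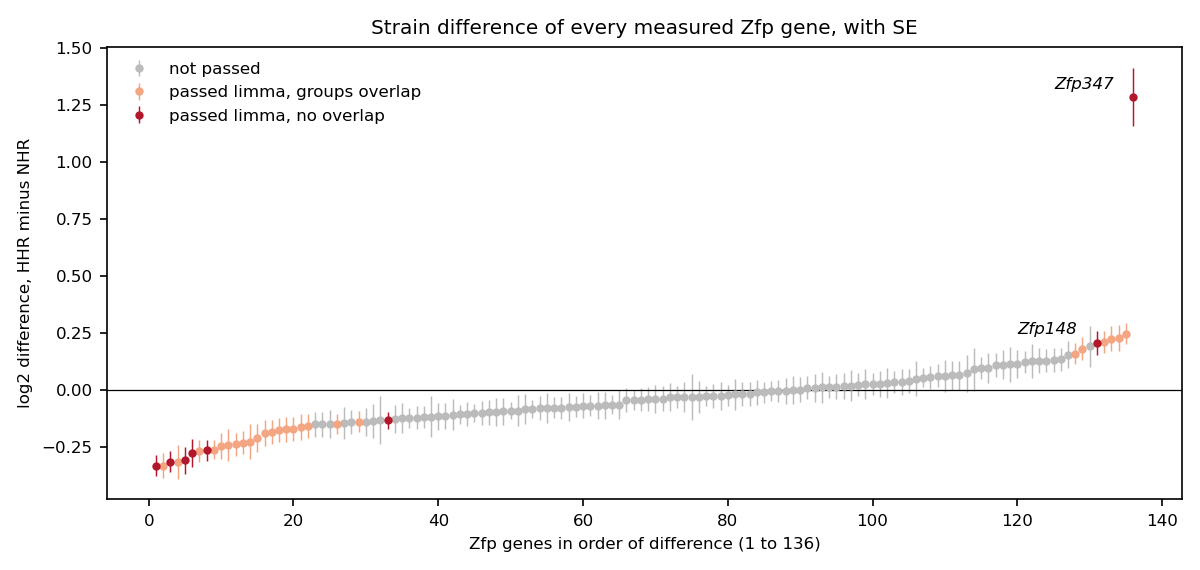
Difference in log2 expression, HHR minus NHR, with its SE (vertical axis), for all 136 Zfp genes in order of the difference (horizontal axis). Grey points did not pass limma, orange points passed with overlapping strains and red points had no overlap. Zfp347, at 1.29, stands alone above all others, which lie between -0.33 and 0.24.

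Some Zfp genes with a known role, chosen after their values were seen, did not pass limma on all 16 arrays. Zfp260, the cardiac Gata4 partner, had HHR values of 9.81 to 10.11 (median 9.998) and NHR values of 9.85 to 10.20 (median 10.06), and differed by -0.05 (SE 0.05). All HHR arrays but the lowest lay within the NHR range. Zfp36, the message decay factor, differed by -0.14 (SE 0.11), with HHR at 9.04 to 9.62 and NHR at 8.92 to 9.88. NHR female 3 was the lowest array, and without the 3 NHR arrays that stand apart Zfp36 differed by -0.30 (SE 0.07) and passed, still with overlapping strains. Zfp143, a binder of many promoters, differed by -0.03 (SE 0.04). Zfp281, known from mouse pluripotent cells, differed by -0.01 (SE 0.05). Zfp207, known from human cells as a carrier of Bub3 to kinetochores, differed by 0.10 (SE 0.05). Zfp598, known from human cells as the ubiquitin ligase of collided ribosomes, differed by -0.07 (SE 0.05). Without the 3 arrays Zfp260 was at -0.08, Zfp281 at -0.04 and Zfp207 at 0.06, and none of these passed.

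Other members with a known role passed limma while their strains overlapped. Zfp57, which keeps DNA methylation at imprinted loci, had HHR values of 8.28 to 8.49 (median 8.34) and NHR values of 8.31 to 8.71 (median 8.60), and differed by -0.21 (SE 0.06). Here 3 of the 8 HHR arrays lay below every NHR array, and all 8 did once the 3 NHR arrays that stand apart were left out (difference -0.26, SE 0.05). Zfp335, whose human counterpart belongs to a histone methyltransferase complex, differed by -0.24 (SE 0.05, 3 of 8 HHR arrays below). Zfp217, whose human counterpart is amplified in breast cancers, differed by -0.26 (SE 0.04, 7 of 8).

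Sex and its interaction with strain were not used in the choice of genes and were tested. With limma 0 of the 136 Zfp genes differed between males and females, beside 0.014% of all genes (2 of 14324). Of the 136, 15 had an unadjusted p under 0.05, beside 838 of the 14324, a larger share among Zfp genes. The smallest adjusted p was that of Zfp667 (0.245), which passed when arrays were weighted by quality (male minus female 0.29, SE 0.05, limma adjusted p = 0.0491). The next were Zfp39 (limma adjusted p = 0.678), Zfp346 and Zfp455 (0.731 for both), then 6 genes at 0.761, of which Zfp365 had the smallest unadjusted p. The strain difference differed between the sexes in 0 Zfp genes, beside 0% of all genes. At an unadjusted p under 0.05 there were 12 of the 136 Zfp genes and 648 of all 14324, again a larger share among Zfp genes. Whether these shares differ was not tested. The smallest limma adjusted p among Zfp genes was 0.964, for Zfp61 and Zfp217. It was followed by 0.969 for 10 genes, of which Zfp346, Zfp352 and Zfp111 had the smallest unadjusted p.

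The 8 separated genes have the same sign in both sexes by the way they were chosen, so only sizes are given. Zfp347 differed by 1.36 in males and 1.21 in females, and Zfp532 by -0.13 in both. The largest contrasts between the sexes among the 8 were in Zfp219, which differed by -0.22 in males and -0.45 in females (interaction 0.23, SE 0.09, limma adjusted p = 0.969), and in Zfp282, which differed by -0.16 in males and -0.37 in females (0.20, SE 0.09, limma adjusted p = 0.969). Of all 136 Zfp genes, 107 had the same sign in both sexes, and 82 had the larger difference in females. These 2 counts were not made over all genes, so they are not given as particular to Zfp genes. Over all genes too, limma called more within females (5.62% higher, 5.18% lower) than within males (1.77% and 1.16%).

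**Figure D3:**
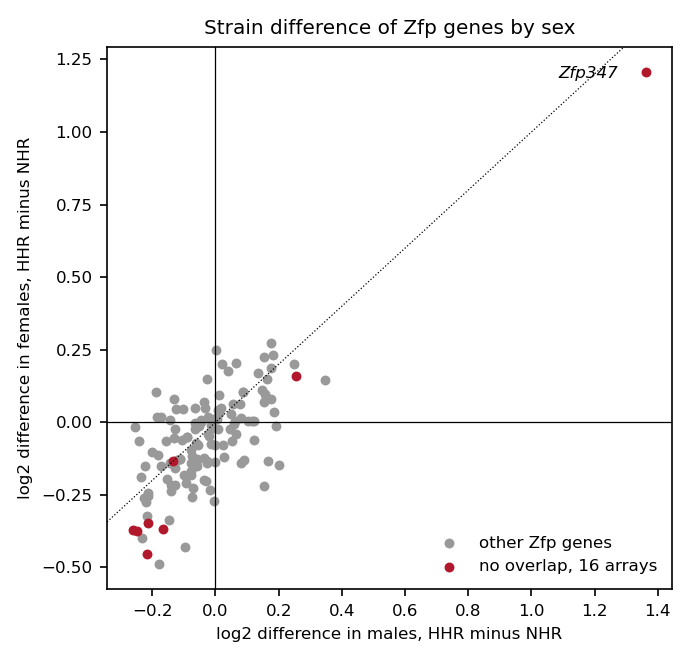
Log2 difference, HHR minus NHR, in males (horizontal axis) and in females (vertical axis) for the 136 Zfp genes; each point is the difference of 2 means of 4 arrays and the dotted line marks equal values. Red points are the 8 genes with no overlap over 16 arrays, whose sign is the same in both sexes by choice. Zfp347 lies at 1.36 in males and 1.21 in females.

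Neighbours in the genome were read from the gene order of the RefSeq table (assembly GRCr8), in which all 136 Zfp genes and 14299 measured genes have a place. The 8 separated genes lie on 7 chromosomes: Zfp282 and Zfp9 on chromosome 4, not next to each other, and the others on chromosomes 7, 10, 11, 15, 16 and 18. The next measured gene on each side gave 16 neighbours, of which 1 (6.25%) was separated the same way and 0 the opposite way. Over the 722 separated genes of any name, 4.44% of 1443 neighbours were separated the same way. Around the 128 Zfp genes that were not separated, 6.25% of 256 neighbours were separated in either direction, and around all measured genes 5.05%.

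The neighbour that went with its Zfp gene was Atp13a1, a transport ATPase of the endoplasmic reticulum, with 2 annotated genes between it and Zfp866 on chromosome 16. Its HHR arrays ran from 8.98 to 9.13 (median 9.05) and its NHR arrays from 9.20 to 9.36 (median 9.21), and it differed by -0.19 (SE 0.04, limma adjusted p = 0.00214). Both genes were lower in every HHR array, but Zfp866 overlapped after quantile normalization, median centring and cyclic loess, and Atp13a1 after quantile normalization. On the other side of Zfp866, Zfp868 differed by -0.12 (SE 0.05) with overlapping strains.

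With the next 2 measured genes on each side, 2 of 32 neighbours (6.25%) were separated the same way, beside 4.09% for separated genes of any name. The gene added was Hnrnpc, which encodes a protein that coats nuclear RNA, near Zfp219 on chromosome 15. It differed by -0.14 (SE 0.04, limma adjusted p = 0.0182), and it overlapped after median centring. The closer neighbours of Zfp219, Rnase13 and Or5au1, differed by -0.10 (SE 0.06) and -0.13 (SE 0.07) with overlapping strains. Without the 3 NHR arrays that stand apart Rnase13 was at -0.02 and Or5au1 at -0.15.

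Zfp347 on chromosome 7 was higher, while the next 3 measured genes on each side all had negative differences, of which Neurod4, Or9k2b (-0.34) and Ankrd24 (-0.15) passed limma. Neurod4 and Or9k2b were dim, with no array above 6.12 and 5.96, beside NHR array medians over all rows of 7.19 to 7.28. Their differences are therefore shifts at a low signal. Or9k2b did not pass without the 3 NHR arrays that stand apart (-0.24, limma adjusted p = 0.0913), and Ankrd24 did not without HHR female 1, HHR female 3, HHR male 2 or NHR male 1. Its next measured genes were Neurod4, a neuronal transcription factor, at -0.18 (SE 0.05, limma adjusted p = 0.011) and Znf57l at -0.10 (SE 0.05, limma adjusted p = 0.153), with 6 and 18 annotated genes in between that had no row of their own symbol. Zfp9 on chromosome 4 lies beside Cacna1c, which encodes the L-type calcium channel of heart muscle and was lower in HHR (-0.28, SE 0.06, limma adjusted p = 0.00175), and Bms1, a ribosome assembly factor (-0.15, SE 0.05, limma adjusted p = 0.0454). Neither was separated. Bms1 was at -0.08 without the 3 NHR arrays (limma adjusted p = 0.305), and with 1 array left out it passed only where that was HHR female 4, HHR male 4, NHR female 1, NHR male 2 or NHR male 3. The neighbours of Zfp148 were Slc12a8 at -0.02 (-0.008 without the 3 NHR arrays) and Snx4 at 0.13, and those of Zfp532 were Nedd4l at 0.18 and Oacyl at 0.13, none of which passed. Igtp, beside Zfp692, differed by -0.03 (-0.07 without the 3 NHR arrays) and did not pass.

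**Figure D4:**
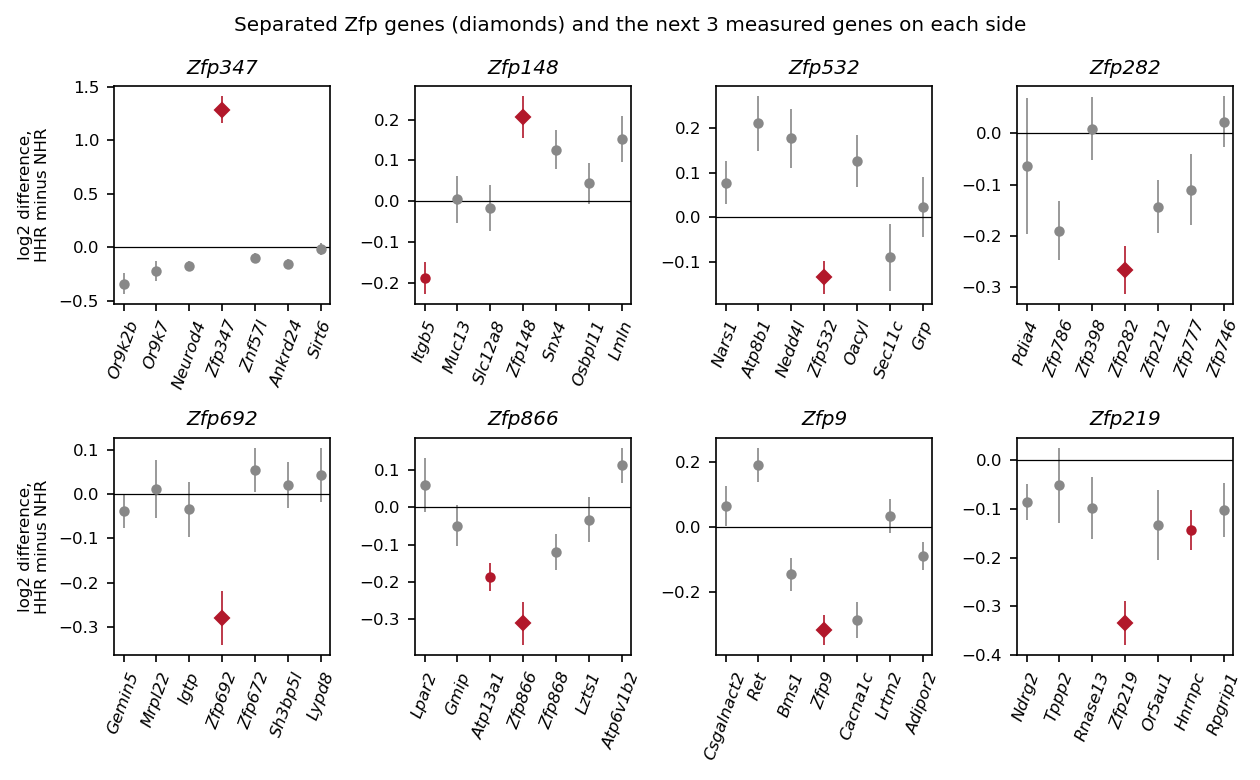
Log2 difference, HHR minus NHR, with its SE (vertical axes, each with its own range), for each separated Zfp gene (diamond) and the next 3 measured genes on each side in GRCr8 order (horizontal axis, even steps). Red marks no overlap between strains: among the neighbours it marks Atp13a1, Hnrnpc and Itgb5, the last of which, 3 steps from Zfp148, was lower in HHR while Zfp148 was higher.

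Zfp genes that follow each other without another measured gene in between formed 14 runs, which together hold 42 Zfp genes. Of the 28 pairs of adjacent Zfp genes, 12 (42.9%) had differences of the same sign, beside 54.6% of all 14278 adjacent pairs of measured genes. In 0 of the 28 pairs did both genes pass limma in the strain comparison, beside 6% of all adjacent pairs, and in 0 were both separated. The longest run, on chromosome 4, comprised Zfp786, Zfp398, Zfp282, Zfp212, Zfp777, Zfp746 and Zfp467. Of these 7 genes 5 had negative and 2 positive differences, and 2, Zfp282 and Zfp786, passed limma as lower. Zfp786, 2 steps from Zfp282, differed by -0.19 (SE 0.06, limma adjusted p = 0.0261) with overlapping strains. It also passed without the 3 NHR arrays that stand apart (-0.19), but not without HHR female 3, NHR female 4 or NHR male 1. Zfp282 differed by -0.27 there, while Zfp398 beside it differed by 0.01 (SE 0.06) and Zfp212 on the other side by -0.14 (SE 0.05). Without the 3 NHR arrays that stand apart both were at -0.07. Zfp692 on chromosome 10 (-0.28) has Zfp672 next to it with no annotated gene between, and Zfp672 differed by 0.05 (SE 0.05).

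Genes of the KRAB pathway were a separate list. Of 28 genes for Trim28 and its partners 22 were measured, while the others, Setdb1 among them, had no row of their own symbol. Of the 22, 5 rose (22.7%, beside 11.8% of all genes), 1 fell (4.55%, beside 11.2%) and 16 did not pass. Their median difference was 0.04, beside -0.02 over all genes. Trim28 averaged 10.58 in HHR and 10.63 in NHR, a difference of -0.05 (SE 0.04, limma adjusted p = 0.359). Cbx5, which encodes heterochromatin protein 1 alpha, averaged 11.77 in HHR and 11.30 in NHR and rose by 0.48 (SE 0.11, limma adjusted p = 0.00411). Ehmt2, a histone methyltransferase, averaged 8.15 in HHR and 8.51 in NHR and fell by 0.36 (SE 0.06, limma adjusted p = 0.000684). Chaf1b, a histone chaperone subunit, rose by 0.29 (SE 0.08, limma adjusted p = 0.016) and Pphln1, a silencing complex subunit, by 0.12 (SE 0.04, limma adjusted p = 0.0264). The other 2 that rose, named like Trim28 outside the rule and after their values were seen, were Cbx3 (0.14, limma adjusted p = 0.0388) and Hdac1 (0.13, limma adjusted p = 0.0436). Cbx5 and Ehmt2 had no overlap between the strains (9.09% of the 22, beside 5.04% of all genes).

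Of these 6 partner calls, 4 were not made in the smaller fit without the NHR arrays that stand apart. NHR female 3, NHR female 4 and NHR male 4 were the 3 lowest arrays for Cbx5 (10.97, 10.98 and 10.89). Without them 1 partner gene was higher, beside 7.15% of all genes, and 1 lower, beside 8.48%. Cbx5 was then higher by 0.26 (SE 0.07, limma adjusted p = 0.0152) and Ehmt2 was at -0.31 (SE 0.05, limma adjusted p = 0.00113). Chaf1b (0.20, limma adjusted p = 0.107), Pphln1 (0.09, limma adjusted p = 0.155), Cbx3 (0.11, limma adjusted p = 0.139) and Hdac1 (0.09, limma adjusted p = 0.248) did not pass. With 1 array left out Pphln1 did not pass without HHR female 2 or NHR female 3. Cbx3 did not without any of 11 arrays, passing only without HHR female 2, HHR male 4, NHR female 2, NHR male 1 or NHR male 2. Hdac1 did not without any of 10, passing only without HHR female 2, HHR male 3, HHR male 4, NHR female 1, NHR female 2 or NHR male 1.

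Heart muscle markers were high, as the labelled tissue has them: 7 of 7 cardiomyocyte genes averaged 13.15 to 14.23. Their summed level, taken to log2, ran from 16.36 to 16.47 in HHR and from 16.43 to 16.54 in NHR. By limma 4 of the 7 were lower in HHR, beside 11.2% of all genes. The summed level of the 2 measured endothelial markers of 4 listed ran from 11.965 to 12.179 in HHR and from 12.181 to 12.359 in NHR. Both genes were lower by limma, beside 11.2% of all genes. Summed levels of the atrial, fibroblast, mural, leukocyte, erythroid, epicardial and neural lists overlapped between strains. Among their measured genes 1 of 3 atrial, 2 of 5 fibroblast, 1 of 3 epicardial, 1 of 3 neural and 1 of 4 erythroid markers were higher by limma, beside 11.8% of all genes. Lower were 1 of 3 mural, 1 of 4 leukocyte and 2 of 4 erythroid markers, beside 11.2% of all genes. Their part in the Zfp differences was not tested, and in whole tissue fewer cells of a type and less RNA per cell cannot be told apart. A difference in genome sequence under the probes can also change a row's signal and cannot be told apart here from a change in RNA. Near-identical zinc finger genes may share probes, which was not tested. Both rows named Zfp101 hold the same values, but they carry the symbol of 1 gene.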

How the data were processed

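The authors deposited log2 values. RMA and limma are the tools listed per the submitters' processing notes, with no versions. RMA subtracts background, equalises the arrays and combines probes into rows, so a probe that binds poorly in 1 strain can shift a row. The array's genome build is not stated in the sources used. The table held 27342 rows on 16 arrays, of which 15097 carried 1 symbol. It held no background level, so whether a dim row lay above background is not known. The number of arrays limits the precision.

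Groups and replicate numbers came from the sample titles. A mean per group was fitted to all 27342 rows with limma 3.58.1 in R 4.3.3 (empirical Bayes, Benjamini-Hochberg over all rows, threshold 0.05), after a check of the code on simulated data. SE is limma's moderated standard error. P-values measure the spread between arrays of single animals, and litters are not given. The strain, sex and interaction contrasts were tested, the strain calls of Zfp genes serve as description only, and separation was counted without a test. All 136 Zfp symbols matched the RefSeq table of GRCr8, used for gene order and flanks. A protein table was not used here, so protein features that had been planned were left out.

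The members, gene lists and alternatives were chosen with earlier results of these data known. Named genes were all separated Zfp genes, those just inside and outside separation (3 on each side), up to 5 with the smallest adjusted p for sex and interaction, measured neighbours and up to 4 KRAB partners. Zfp genes with a known role, Zfp786, 3 further KRAB partners and 4 further neighbours were named after their values were seen. Alternatives were a filter on dim rows (over the 40th percentile on 4 or more arrays, passed by 122 of the 136), rows with 1 symbol only, 3 further scalings, trended and robust moderation, array weights, the replicate number as a block, strain alone, each sex alone, a threshold of 0.01, the mean over a gene's rows, and arrays left out.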

Additional observations from a re-analysis of the deposited data

Results flagged for a closer look

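Outliers were looked for in 14 Zfp genes, the 8 separated ones and the 6 just outside, in each group of 4 arrays. In 3 of these 56 groups the extreme array stood off beyond Dixon's 95% critical value for its gap as a share of the group's range. In genes not chosen by their extreme arrays chance would give about 2.8. These 14 genes were chosen by the gap between extreme arrays, so that number is no yardstick for them and nothing is read from it. Zfp347 in NHR female 4 was at 5.64, below the next array at 6.28 (0.896 of the range). Zfp532 in HHR female 3 was at 9.06, below the next at 9.20 (0.912 of the range). Zfp346 in HHR male 1 was at 8.26, above the next at 8.13 (0.905 of the range), and this was the array that kept Zfp346 from separation.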

How the results depend on the processing

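The 14 named Zfp differences kept their sign in all 406 values over the alternatives, and 400 lay within 1 SD of the value given. The other 6 came from taking 1 sex alone: Zfp219, Zfp282 and Zfp524. Counts moved more. With the replicate block 26 Zfp genes were lower and 8 higher (12.1% and 13% of all genes). Deviations of arrays with the same number correlated at -0.108 to 0.367, over 0.1 in 11 of 24 pairs (median 0.0905). Those with other numbers exceeded 0.1 in 9 of 72 pairs (median -0.0302). Arrays of the same number were thus somewhat more alike, and the main fit, which has no block, leaves this out. The sample titles do not say what the numbers stand for, and whether they mark a batch or litter was not tested. Within females 11 were lower and 2 higher (5.18% and 5.62% of all genes), and within males 0 and 2 (1.16% and 1.77%), with fewer arrays in each fit. At a threshold of 0.01 there were 12 lower and 5 higher (5.84% and 6.64%). Without NHR female 3, NHR female 4 and NHR male 4 there were 23 lower and 3 higher (8.48% and 7.15%), while 8 were separated below and 4 above (4.67% and 2.92%), since fewer arrays make separation easier. After quantile normalization 3 were separated below (2.52% of all genes), after cyclic loess 2 (2.33%), and after median centring 4 above (2.25%). The cause was not tested. Leaving out each array in turn gave 19 to 27 lower and 7 to 10 higher genes (9.24% to 12.2% and 9.69% to 13.8% of all genes). It gave 6 to 8 separated below and 2 to 3 above (2.77% to 3.41% and 2.39% to 5.05% of all genes), and the 8 stay separated by construction. For sex 1 gene was called with array weights, for the interaction 0. Neighbours separated the same way numbered 1, or 2 with the next 2 genes on each side. The KRAB partners were looked at under these settings after seeing the data. Of them 3 were higher after quantile normalization (11.5% of all genes) and after cyclic loess (12.3%). Within females (5.62%) and without the 3 NHR arrays (7.15%) 1 was higher. Within males 0 were higher (1.77%) and 0 lower (1.16%). With 1 array left out 2 to 6 KRAB partners were higher and 1 to 2 lower (9.69% to 13.8% and 9.24% to 12.2% of all genes).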

Other observations

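Zinc finger genes with other names were counted in the same strain comparison. Of 31 Zbtb genes, 2 were higher (6.45%, beside 11.8% of all genes) and 5 lower in HHR (16.1%, beside 11.2%; limma, adjusted p threshold 0.05). Of the 31, 1 was separated below NHR (3.23%, beside 2.72%), and the median difference was -0.06. Of 3 Zscan genes 1 was lower (33.3%, beside 11.2% of all genes) and 0 were separated, beside 5.04% of all genes. Of 4 Zkscan genes 0 passed, beside 11.8% higher and 11.2% lower of all genes, and 0 were separated. Lists of 3 and 4 genes are too short to be set against these shares.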
